A study of Canis lupus familiaris with 20 samples.

Results

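Matrilin 1 and epiphycan are matrix components made by chondrocytes of young cartilage, and the 2 genes described here are those at the positions of MATN1 and EPYC in the dog genome. They were chosen from the 24580 genes of the deposited table because they are abundant and were much lower in control cartilage at postnatal day 14 than at day 9. The samples are bulk RNA-seq libraries of cartilage cut from the T12 vertebral epiphyses of dogs with mucopolysaccharidosis VII (MPS VII), a disease that arose naturally in this line through a missense change in GUSB. Controls were heterozygous dogs matched by litter, so they too carry 1 copy of the change, which MPS VII dogs carry on both chromosomes. There were 5 dogs in each of 4 groups, control day 9, control day 14, MPS VII day 9 and MPS VII day 14, with 1 library per dog made from the pooled cranial and caudal ends of the vertebra. All dogs were killed with sodium pentobarbital, and neither the litter nor the sex of each dog was used here.

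The epiphysis of a vertebra begins as cartilage and is later invaded by vessels and replaced by bone, which is known as endochondral ossification. Matrilin 1 is a filament-forming protein that links collagen fibrils and the proteoglycan aggrecan, and it is known as a product of chondrocytes of growing cartilage. Epiphycan is a small leucine-rich proteoglycan named for the epiphyseal cartilage in which it is found, and it carries glycosaminoglycan chains. In MPS VII the lysosomal enzyme beta-glucuronidase is deficient and glycosaminoglycans are left partly degraded.

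The deposited table gives Ensembl identifiers without names, so both genes are named by position. The MATN1-position gene, ENSCAFG00000011269, lies on the plus strand of chromosome 2 of CanFam3.1 from 70225456 to 70234420, with 12 exons of 2378 bases in all. Its span of 8965 bases compares with 9074 bases for MATN1 on chromosome 2 of the RefSeq annotation of another dog assembly, UU_Cfam_GSD_1.0. In that annotation LAPTM5 is the protein-coding gene before MATN1 and PTPRU and MECR are those after it, with spans of 26778, 78700 and 30864 bases. The tested genes at the same places in the deposited table span 27349, 78681 and 30492 bases.

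The EPYC-position gene, ENSCAFG00000006129, lies on the minus strand of chromosome 15 from 31670414 to 31735104, with 8 exons of 2174 bases in all. Its span of 64691 bases is longer than the 38007 bases of EPYC in the RefSeq annotation. The protein-coding genes that follow EPYC there, KERA, LUM and DCN, encode further small leucine-rich proteoglycans and span 7791, 7553 and 43203 bases. The next 3 tested genes of the deposited table span 7855, 9203 and 43404 bases. Position and order thus carry the names, and 0 of the table's identifiers are paired with a symbol. The most abundant gene of the table, on chromosome 27 from 6756994 to 6787846, spans 30853 bases against 30753 for COL2A1, the gene of type II collagen, and serves below as a yardstick for cartilage.

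Total counts ran from 22703756 to 28028365 per library in control day 9, 16975358 to 20766128 in control day 14, 21419930 to 27102423 in MPS VII day 9 and 15772761 to 22471728 in MPS VII day 14, so day 9 libraries were mostly deeper. MPS VII day 9 replicate 3 stood apart, since the COL2A1-position gene took 63345 of every 1000000 normalised counts there (CPM) while the other 4 libraries of the group ranged from 259738 to 423427 CPM. The levels, shares, fold changes and spread of the members in that group, and their relation within groups, are given with and without it. The difference of age changes between genotypes and the number of MATN1-position counts per EPYC-position count are given only with it. The lowest count of the members in any library was 160, so counting error was small beside the spread between dogs. In bulk tissue, fewer cells of a type and less RNA per cell cannot be told apart.

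In control cartilage of day 9 the MATN1-position gene stood at 1128, 1328, 1322, 1286 and 1173 CPM in replicates 1 to 5. At day 14 the control dogs held 233, 256, 121, 119 and 230.3 CPM. Every day 14 control lay below every day 9 control, and replicates 3 and 4 were the lowest. The means were 1247 ± 91.3 and 192 ± 66.3 CPM (SD, n = 5 each), 6.50-fold lower at day 14, with a log2 fold change of -2.70 ± 0.29 (SE). This difference chose the gene and is given as a description with no test. All day 14 libraries were below all day 9 libraries for 18.2% of the 14550 tested genes, and 20.7% passed the edgeR test as lower at day 14.

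MPS VII cartilage held more of the MATN1-position transcript. The affected dogs of day 9 stood at 2446, 2535, 2225, 3729 and 1579.8 CPM, a mean of 2503 ± 781 (SD, n = 5). Without replicate 3 the mean was 2572 ± 883 CPM (n = 4). Each of the 5 dogs was above each control of the same age, whose highest value was 1328 CPM. At day 14 the affected dogs held 2487, 1260.0, 934, 2060.3 and 1042.5 CPM, a mean of 1557 ± 682. All 5 exceeded all controls of day 14, and their range enclosed that of the day 9 controls.

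From day 9 to day 14 in affected dogs the MATN1-position gene had a log2 fold change of -0.68 ± 0.27 (SE, n = 5 each), which did not pass the test (edgeR quasi-likelihood test, Benjamini-Hochberg adjusted p = 0.0732). The affected dogs had no part in choosing the gene. Its approximate 95% interval for a single gene ran from -1.22 to -0.15. The call depended on the libraries and the tool: DESeq2 gave -0.66 with an adjusted p of 0.0447, and edgeR gave -0.92 (adjusted p = 0.0195) without MPS VII day 14 replicate 1 and -0.81 (adjusted p = 0.0421) without MPS VII day 9 replicate 5. A fit of affected dogs alone gave -0.68 (edgeR adjusted p = 0.1635). Over all 27 alternatives the adjusted p ran from 0.0195 to 0.212, and 24 did not pass. Without MPS VII day 9 replicate 3 the log2 fold change was -0.71 (adjusted p = 0.0808).

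**Figure D1:**
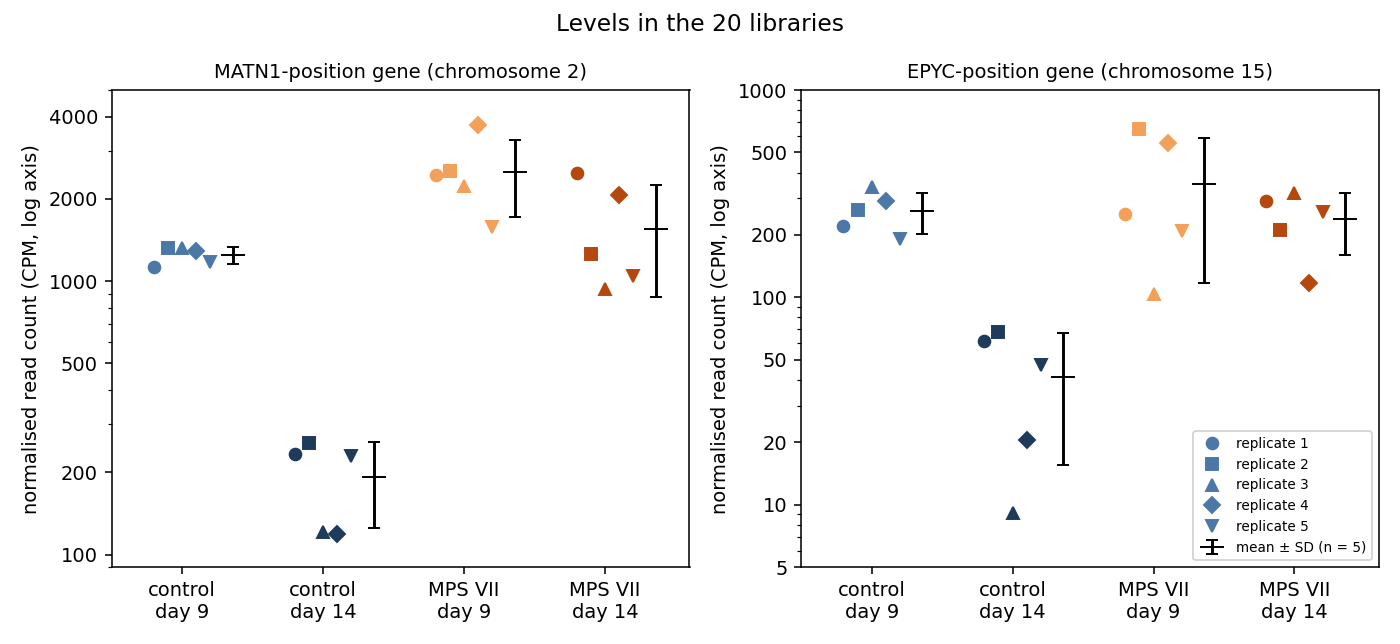
Normalised read counts (CPM, log axis) of both genes in each library, by group, with a marker shape per replicate number (numbers do not pair dogs across groups) and the mean ± SD (n = 5) beside each group. Control day 14 lies lowest for both genes, at 119 to 256 CPM for the MATN1-position gene and 9.07 to 68.1 CPM for the EPYC-position gene.

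The EPYC-position gene was the less abundant of the pair. Control dogs of day 9 held 221, 265, 340.3, 290.1 and 190.5 CPM, and those of day 14 held 61.8, 68.1, 9.07, 20.5 and 47.0 CPM. The ages did not overlap, and replicates 3 and 4 of day 14 were again the lowest. The means were 261 ± 58.5 and 41.3 ± 25.7 CPM (SD, n = 5 each), 6.32-fold lower at day 14, with a log2 fold change of -2.66 ± 0.51 (SE). This difference too chose the gene and carries no test.

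Affected dogs of day 9 held 252, 649.7, 103, 557 and 208 CPM of the EPYC-position gene, a mean of 354 ± 236 (SD, n = 5). Replicates 2 and 4 exceeded every control of day 9, and replicate 3, the library that stood apart, lay below all of them. Without replicate 3 the mean was 417 ± 219.5 CPM (n = 4). At day 14 the affected dogs held 292, 210.4, 320.4, 118 and 259 CPM, a mean of 240.0 ± 79.7. All 5 were above the highest control of day 14, and 4 of them lay within the range of the day 9 controls.

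With age in affected dogs the EPYC-position gene had a log2 fold change of -0.56 ± 0.48 (SE, n = 5 each), which did not pass the test (edgeR adjusted p = 0.407). Its approximate 95% interval ran from -1.49 to 0.37 and so does not show a lack of change. Without MPS VII day 9 replicate 3 the value was -0.77 (adjusted p = 0.255), and without replicate 2 of the same group it was -0.22 (adjusted p = 0.765), -0.34 without its replicate 4 and -0.35 without MPS VII day 14 replicate 4. Every alternative gave a log2 fold change under 0 and none passed, with adjusted p from 0.255 to 0.765. Of the 2 genes, 0 were called with age in affected dogs by edgeR, 1 had an unadjusted p under 0.05, and 1 was called by DESeq2. Among all tested genes 22.7% were called in that comparison, 12.7% as higher and 9.92% as lower at day 14.

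The order of the levels differed between the genes. For the MATN1-position gene it ran from MPS VII day 9 through MPS VII day 14 and control day 9 to control day 14. Both neighbouring pairs at the top of that order overlapped, while control day 14 was apart from all other libraries. For the EPYC-position gene MPS VII day 9 came first, then control day 9, MPS VII day 14 and control day 14. Its first 3 groups overlapped one another, and control day 14 was again apart.

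Differences between genotypes share the control libraries that chose the genes, so they are given as descriptions. At day 14 the MATN1-position gene was 8.12-fold higher in affected dogs (log2 fold change 3.02 ± 0.29, SE) and the EPYC-position gene 5.80-fold higher (2.54 ± 0.50). The libraries of both genotypes were apart for both genes, as they were for 19.1% of all tested genes and, with affected dogs higher, for 9.27%. At day 9 the MATN1-position gene was 2.01-fold higher (1.00 ± 0.28), with no overlap, as for 8.09% of all tested genes in either direction and 5.26% with affected dogs higher. Its value was 0.82 without MPS VII day 9 replicate 4 and 1.04 without replicate 3. For the EPYC-position gene the day 9 difference was 0.44 ± 0.48, within the spread between dogs. It was 0.10 without MPS VII day 9 replicate 2 and 0.67 ± 0.48 without replicate 3. The age change in affected dogs minus that in controls was 2.02 ± 0.39 on the log2 scale for the MATN1-position gene and 2.10 ± 0.68 for the EPYC-position gene. That quantity contains the difference that chose both genes.

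**Figure D2:**
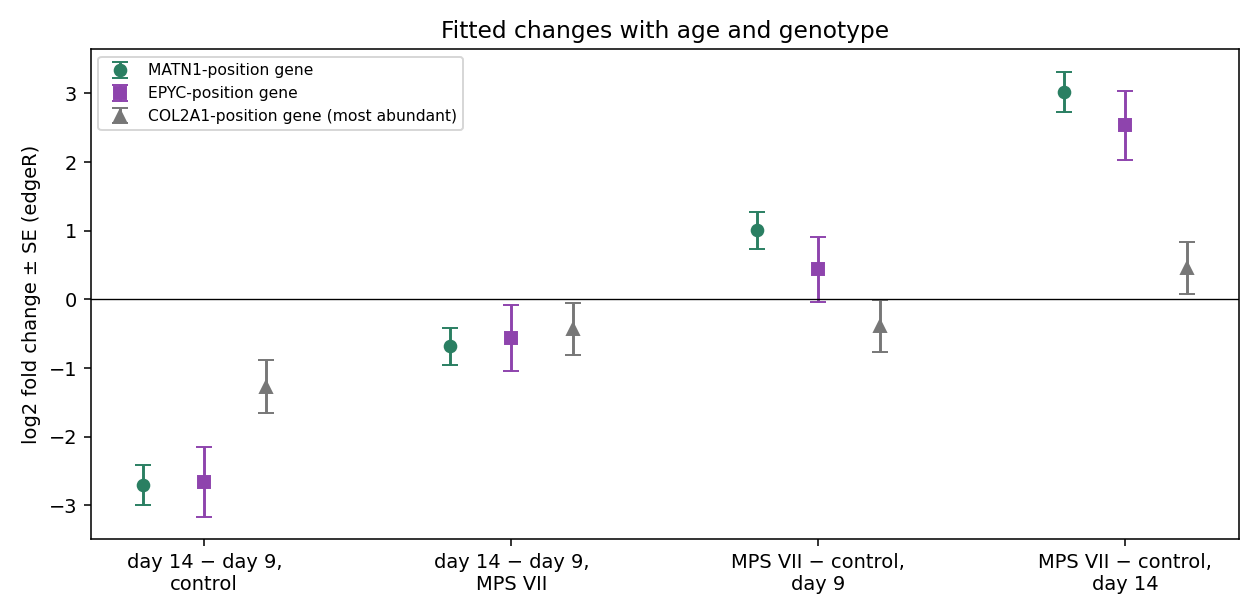
Log2 fold changes ± SE of the edgeR fit over 20 libraries for both genes and the COL2A1-position gene, by comparison; values below 0 are lower at day 14 or lower in MPS VII. Both genes lie at -2.70 and -2.66 with age in controls and at -0.68 and -0.56 with age in MPS VII, while the COL2A1-position gene lies at -1.27 and -0.44, the latter -0.67 without MPS VII day 9 replicate 3.

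Per kilobase of exon the MATN1-position gene was the more abundant in every group. It stood at 525 ± 38.4 CPM per kb in control day 9, 80.7 ± 27.9 in control day 14, 1053 ± 328 in MPS VII day 9 and 655 ± 287 in MPS VII day 14 (SD, n = 5 each). The EPYC-position gene stood at 120.2 ± 26.9, 19.0 ± 11.8, 163 ± 109 and 110.4 ± 36.7 CPM per kb in the same order of groups. Ranked by the group's mean CPM per kb among 14550 tested genes, the MATN1-position gene went from place 113 in control day 9 to place 540 in control day 14, and held places 59 and 80 in affected dogs of day 9 and day 14. The EPYC-position gene held places 404, 2739, 294 and 414. Without MPS VII day 9 replicate 3 the places in that group were 56 and 250, at 1082 ± 371 and 192 ± 101 CPM per kb (n = 4). In affected dogs of day 14 both genes thus ranked near or above their place in control dogs of day 9.

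The spread between dogs was not the same in all groups. The coefficient of variation of the MATN1-position gene was 7.32% in control day 9 and 31.2% to 43.8% in the other groups. That of the EPYC-position gene was 22.4% in control day 9, 62.2% in control day 14, 66.7% in MPS VII day 9 and 33.2% in MPS VII day 14. Without replicate 3, the values for MPS VII day 9 were 34.3% for the MATN1-position gene and 52.7% for the EPYC-position gene. Within control day 14 the EPYC-position gene spanned 7.51-fold from its lowest to its highest dog, and the MATN1-position gene 2.15-fold.

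A ratio of counts within a library does not depend on how libraries are scaled. It does depend on the yardstick, and the COL2A1-position gene was itself 2.42-fold lower in control day 14 than in control day 9. Age differences in controls were therefore smaller on this scale. Counts of the MATN1-position gene were 0.344% ± 0.0651 of those of the COL2A1-position gene in control day 9 and 0.147% ± 0.0879 in control day 14 (SD, n = 5 each). These ranges touched, since control day 14 replicate 1 reached 0.288% and the lowest day 9 control 0.278%. In affected dogs the share was 1.31% ± 1.25 at day 9, 0.762% ± 0.230 without replicate 3 (n = 4), and 0.719% ± 0.181 at day 14. All affected dogs of day 14, at 0.560% to 0.949%, lay above all 10 controls, the highest of which was at 0.449%. The day 9 genotypes touched on this scale, with MPS VII replicate 5 at 0.449063% and control replicate 1 at 0.449265%. For the EPYC-position gene the shares were 0.0716% ± 0.0168 and 0.0334% ± 0.0276 in controls and 0.136% ± 0.0762 and 0.123% ± 0.0641 in affected dogs, with 0.129% ± 0.0862 at day 9 without replicate 3 (n = 4). On this scale its day 14 genotypes overlapped, because control day 14 replicate 1 held 0.0766% and MPS VII day 14 replicate 4 held 0.0541%.

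**Figure D3:**
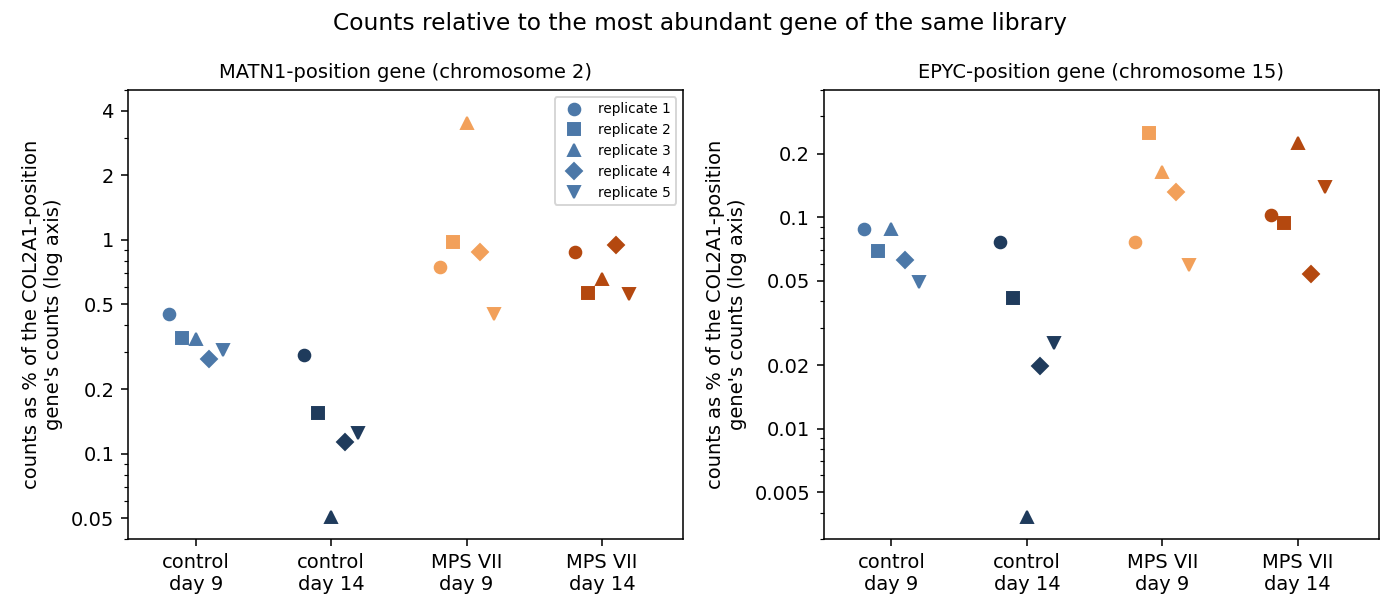
Counts of each gene as a percentage of the counts of the COL2A1-position gene in the same library (log axis), by group, with a marker shape per replicate number. The MATN1-position gene lies at 0.560% to 0.949% in MPS VII day 14 and at 0.0508% to 0.288% in control day 14; MPS VII day 9 replicate 3 is highest, at 3.51%, in the library with the lowest COL2A1-position level.

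Both genes were also compared within groups, where the choice of the genes by group differences has no part. The deviations of log2 CPM from the group mean correlated over 20 libraries with a Pearson r of 0.476 (permutation within groups, two-sided p = 0.0752) and a Spearman rho of 0.487 (permutation p = 0.0562), both with an adjusted p of 0.0752 over these 2 measures. Without MPS VII day 14 replicates 1 and 3, the 2 libraries whose deviation for the MATN1-position gene was farthest from its median, r was 0.574 (permutation p = 0.0605) and rho 0.593 (permutation p = 0.0425). In the 10 control libraries alone r was 0.922 (permutation p = 0.00429), and in the 10 affected libraries alone it was 0.148 (permutation p = 0.661). The difference between genotypes in this relation was not tested. The p of these splits, and of all fits with libraries left out, are not adjusted for their number. The test over all 20 libraries did not pass. In control day 14 replicates 3 and 4 lay 0.58 and 0.61 below the group mean for the MATN1-position gene, and 1.84 and 0.67 below it for the EPYC-position gene. In MPS VII day 14 the genes went opposite ways in several dogs: replicate 4 lay 0.51 above the group mean for the MATN1-position gene and 0.95 below it for the EPYC-position gene, and without it the pooled r was 0.630 (permutation p = 0.0137). Without replicate 3 of that group r was 0.591 (permutation p = 0.0355). Leaving out control day 14 replicate 3 gave the lowest value, 0.364 (permutation p = 0.196), and leaving out MPS VII day 9 replicate 3 gave 0.501 (permutation p = 0.0789). Within single groups of 5 dogs r was 0.818 in control day 9, 0.930 in control day 14, 0.589 in MPS VII day 9 and -0.408 in MPS VII day 14, given as descriptions.

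The number of MATN1-position counts per EPYC-position count shows the same dogs. It was 4.92 ± 0.849 in control day 9 (SD, n = 5), with a range of 3.89 to 6.16. In the other groups single dogs stood high, at 13.4 in control day 14 replicate 3, 21.5 in MPS VII day 9 replicate 3 and 17.5 in MPS VII day 14 replicate 4. The group medians differed less, at 5.02 in control day 9, 4.90 in control day 14, 7.58 in MPS VII day 9 and 5.99 in MPS VII day 14.

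**Figure D4:**
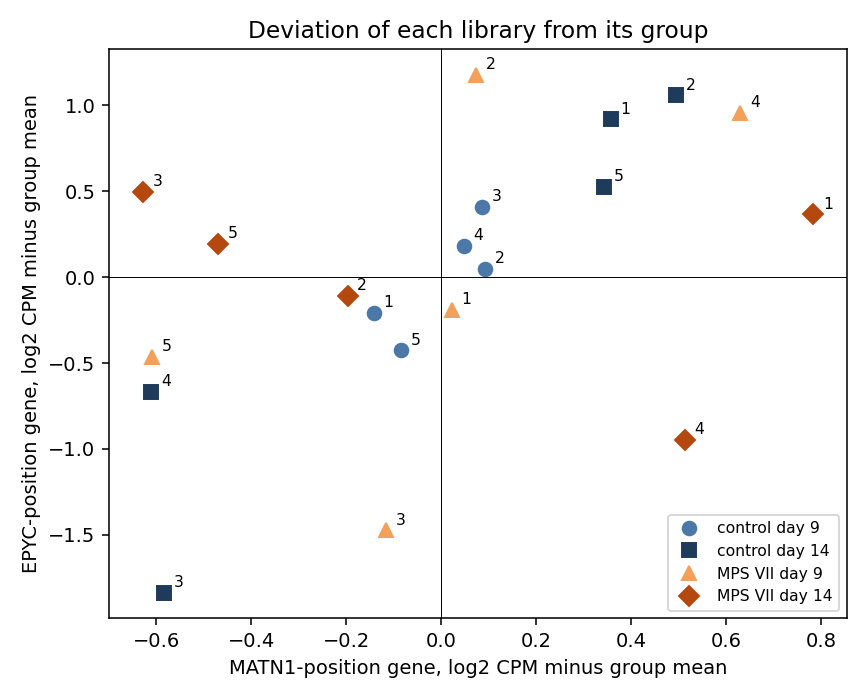
Deviation of each library's log2 CPM from its group mean for the MATN1-position gene (x) and the EPYC-position gene (y), with the replicate number beside each point and a shape and colour per group. The 10 control libraries run from lower left to upper right, and MPS VII day 14 replicates 3, 4 and 5 lie off that direction.

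Genes at the positions of bone and osteoclast genes were highest in control day 14, where both cartilage genes were lowest. The gene at the position of ACP5, an osteoclast enzyme, on chromosome 20 from 49813686 to 49817040 (a span of 3355 bases against 2389 in the reference), held 375 to 1251 CPM in control day 9 and 2073 to 2816.9 in control day 14, but 28.3 to 94.5 in MPS VII day 9 and 38.4 to 107 in MPS VII day 14. A run of 3 genes on chromosome 32 at the position of bone matrix phosphoprotein genes summed to 652 to 1509 CPM in control day 9 and 5594 to 13546 in control day 14, against 590 to 1097 and 847 to 1747 in affected dogs of the 2 ages. All 3 were counted in all 20 libraries. They were chosen as neighbours called lower in affected than in control dogs at day 14. That difference is thus part of their choice, and their names were not checked against the reference. The gene at the position of GPNMB, a glycoprotein of macrophages and osteoclasts, lies on chromosome 14 from 36918913 to 36947518. It held 0.806 to 4.17 CPM in control day 9 and 4.42 to 16.8 in control day 14. Affected dogs held 247 to 424 CPM at day 9 and 611 to 1124 at day 14. It thus differed most between genotypes and was also higher at day 14 in each. The part of bone cells, osteoclasts and macrophages in the levels of the cartilage genes was not tested. Within control day 14 the EPYC-position gene was lowest, at 9.07 CPM, in replicate 3, whose bone run summed to 7381 CPM. Replicate 4 had the highest bone sum, and replicate 1, with 61.8 CPM of the EPYC-position gene, the next highest at 10857. The MATN1-position gene was lowest in replicate 4, at 119 CPM. It was highest in replicate 2, at 256 CPM, where the bone sum was lowest, at 5594. Replicates 1 and 3 held 233 and 121 CPM of it and did not follow that order.

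The difference with age in controls was set beside the genes of like abundance. Of 1070 other genes with a mean of at least 100 CPM over all libraries, 341 passed the edgeR test as lower and 210 as higher with age in controls, with a median log2 fold change of -0.15. Over all 14550 tested genes 3011 (20.7%) were lower and 3176 (21.8%) higher, with a median of -0.06. None of the 1070 had a lower fold change in controls than either gene, which is what the choice asked for. The next in order was a gene of 95 bases on chromosome 18 from 46206389 to 46206483, at 282 ± 51.8 CPM in control day 9 and 55.4 ± 15.8 in control day 14 (log2 fold change -2.35 ± 0.37). The gene after that with more than 1 exon, on chromosome 4 from 73787829 to 73808924, went from 195 ± 19.7 to 47.8 ± 13.7 CPM (-2.03 ± 0.42).

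With age in affected dogs 129 of the 1070 abundant genes were lower and 185 higher, with a median of -0.08, against 1443 lower, 1854 higher and a median of -0.09 over all tested genes. There 30 of the 1070 had a lower fold change than the MATN1-position gene and 71 a lower one than the EPYC-position gene. Scaling without the 20 most abundant genes changed the split over all genes to 1013 lower and 2069 higher. The count of lower abundant genes depended on single libraries: it was 203 without MPS VII day 9 replicate 3, 85 without replicate 4 of that group, and 77, 62 and 72 without MPS VII day 14 replicates 2, 3 and 5, where the count over all genes was 778, 681 and 770. A fit of affected dogs alone gave 29 lower and 105 higher abundant genes. The rank between genotypes at day 14 shares the control libraries of day 14 that chose the genes and is part of the same choice: 3 of the 1070 had a higher fold change than the MATN1-position gene and 6 a higher one than the EPYC-position gene. At day 9, where the control libraries also served the choice, these numbers were 29 and 100.

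The genes beside the EPYC-position gene differed from one another. The first gene along, 15.6 kb away where KERA follows EPYC in the reference, was low and variable, with 1.28 to 44.0 CPM in control day 9 and 0.563 to 15.4 in control day 14. Its mean was lowest there, at 7.13 ± 7.08 CPM against 17.3 ± 17.6 in control day 9, 16.2 ± 10.8 in MPS VII day 9 and 20.5 ± 9.87 in MPS VII day 14 (SD, n = 5 each), with overlap in each comparison. The second, on chromosome 15 from 31791505 to 31800707, stood at 3617 ± 394 CPM in control day 9 and 4052 ± 816 in control day 14 (SD, n = 5 each), which differ by 0.16 ± 0.16 on the log2 scale. The third, from 31834014 to 31877417, went from 5704 ± 372 to 3608 ± 781 CPM in controls (-0.66 ± 0.16) and from 5106 ± 691 to 5275 ± 536 in affected dogs (0.05 ± 0.16). At day 14 it was higher in affected than in control dogs (0.55 ± 0.16). The third gene thus had no overlap between ages in controls or between genotypes at day 14, as for the EPYC-position gene, at smaller fold changes. In the same directions the first held for 18.2% of all tested genes and the second for 9.27%. On the other side the nearest tested gene lay 996 kb away.

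Beside the MATN1-position gene the changes also differed. The gene 10.03 kb before it, on chromosome 2 from 70188081 to 70215429, went the opposite way in controls, from 35.3 ± 6.53 to 111.2 ± 13.0 CPM (SD, n = 5 each; log2 fold change 1.66 ± 0.16), and stood at 54.0 ± 9.56 and 72.9 ± 16.9 CPM in affected dogs. It is at the place of LAPTM5, a lysosomal membrane protein of blood cells. The gene before that, from 70081302 to 70092392, went from 448 ± 74.8 to 237 ± 58.4 CPM in controls (-0.92 ± 0.18) and from 443 ± 59.4 to 373 ± 88.4 in affected dogs (-0.25 ± 0.18). On the far side, 1050 kb away at the place of PTPRU, a low gene had the same order of groups as the MATN1-position gene, with 6.57 ± 1.89 and 2.80 ± 0.90 CPM in controls and 16.4 ± 10.7 and 9.52 ± 3.57 in affected dogs.

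Genes with the most similar profile were sought among 2497 genes other than the gene itself with a mean of at least 50 CPM, by Pearson's r of log2 CPM over the 20 libraries. The libraries share their groups and their scaling, so these r contain differences between groups and carry no test. Most like the MATN1-position gene were genes on chromosome 25 from 7832887 (r = 0.958), chromosome 16 from 44882118 (r = 0.958 as well), chromosome 24 from 34732924 (r = 0.942), chromosome 3 from 66543046 (r = 0.939) and chromosome 1 from 106372564 (r = 0.938). All 5 were lower in control day 14 than in control day 9 and higher in affected than in control dogs at day 14, with no overlap of libraries in either comparison. The first held for 18.2% of all tested genes and the second for 9.27%. Genes picked for a like profile share such differences in part through the choice. Their log2 fold changes with age in controls, -1.68 to -0.93, were smaller than that of the MATN1-position gene.

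Among these 5 only the chromosome 24 gene had no overlap at day 9, affected dogs higher, as 5.26% of all tested genes did. It stood at 126 ± 27.2 CPM in control day 9, 39.4 ± 9.12 in control day 14, 429 ± 159 in MPS VII day 9 and 245 ± 67.7 in MPS VII day 14 (SD, n = 5 each). Its day 9 log2 difference between genotypes, 1.77 ± 0.24, was larger than the 1.00 ± 0.28 of the MATN1-position gene, which no test compared.

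Most like the EPYC-position gene were genes on chromosome 21 from 23991410 (r = 0.940), chromosome X from 84351485 (r = 0.896), chromosome 6 from 1211715 (r = 0.895), chromosome 16 from 44882118 (r = 0.892, a gene of both lists) and chromosome 5 from 43473831 (r = 0.886). The chromosome X gene was the most abundant of them, at 1634 ± 159 CPM in control day 9, 599 ± 134 in control day 14, 1524 ± 474 in MPS VII day 9 and 1213 ± 183 in MPS VII day 14. The 2 cartilage genes ranked 35 and 8 in each other's order, with r = 0.872 and a Spearman rho of 0.668. Both were chosen for a fall in control day 14, so these values come in part from the choice. With MPS VII day 9 replicate 3 included, the COL2A1-position gene ranked 674 for the MATN1-position gene (r = 0.454). For the EPYC-position gene it ranked 470 (r = 0.504). That library had the lowest COL2A1-position level of all, and no rank is given without it. In control day 14 the COL2A1-position gene was 2.42-fold lower than in control day 9 (log2 fold change -1.27 ± 0.38), where both described genes were over 6-fold lower.

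**Figure D5:**
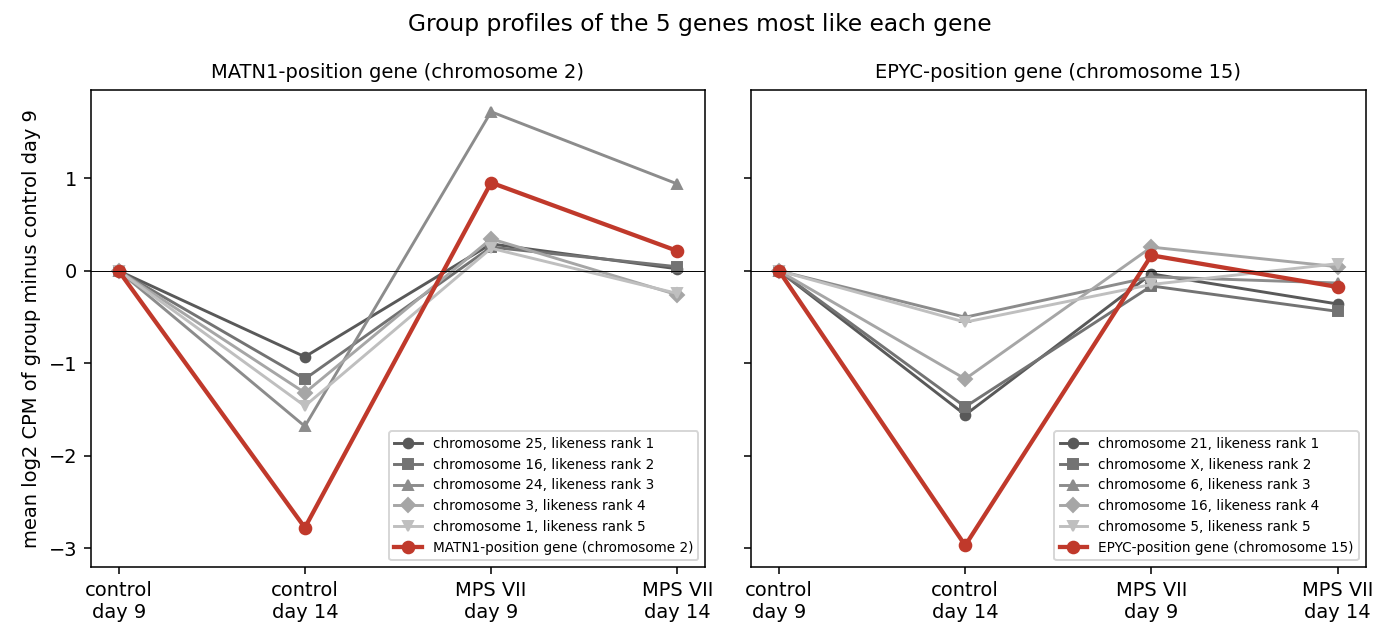
Mean log2 CPM of each group minus that of control day 9 for the MATN1-position gene (left) and the EPYC-position gene (right), each with the 5 genes of the most similar profile; lines join the groups for the eye only. Each gene lies further below its day 9 level in control day 14 than the 5 similar genes, and the chromosome 24 gene lies above the MATN1-position gene in both MPS VII groups.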

How the data were processed

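Counts of reads per gene in 20 libraries, not normalized, come from 1 deposited table that also lists exon positions and summed exon length, per the file headers. Counts under 200 were even in 65.2% to 76.4% of cases per library, so fits were repeated on halved counts. Per the labels' protocols, the authors prepared stranded mRNA libraries and mapped them to CanFam3.1 and Ensembl build 77. Tools listed, without their roles, per the submitters' processing notes are STAR 2.4.0j, HTSeq, edgeR, bcl2fastq and CASAVA 1.8.2. The strand setting of the counting is not given in the sources used here.

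Genes kept by filterByExpr (14550) were fitted with edgeR 4.0.16 in R 4.3.3, TMM scaling, 1 mean per group, the quasi-likelihood test and Benjamini-Hochberg adjustment over all tested genes at a threshold of 0.05. DESeq2 1.42.0 was an alternative. Standard errors are the log2 fold change over the square root of F, and approximate 95% intervals are 1.96 of them to either side. CPM use TMM-scaled library sizes; log2 CPM used a prior count of 2. The relation within groups was tested with 100000 permutations. No 2 libraries of a group were alike within sampling noise (chi-square per gene at least 16.7 over 40 pairs).

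The members and lists were chosen with earlier results of these data known. The genes named are both members, the 5 genes most like each, position markers and the most abundant gene. Of the 3 tested neighbours on either side, levels are given for only some. The next fallers and the chromosome 15 details were chosen after values were seen. Marker lists by gene symbol were not used here, since no identifier matched a symbol. No sequence table was used here.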

Additional observations from a re-analysis of the deposited data

How the results depend on the processing

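Alternatives were median-ratio and upper-quartile scaling, scaling without the 20 most abundant genes, no filter on low counts, halved counts, DESeq2, fits of only the groups compared, and each library left out. The age change of the MATN1-position gene in affected dogs stayed below 0 in all 27 alternatives and was called in 3: -0.66 by DESeq2, and 2 with a library left out. Leaving out 1 library gave log2 fold changes from -0.92 to -0.50 for it and from -0.77 to -0.22 for the EPYC-position gene, which was called in none. The number of genes called with age in affected dogs was 3297, and 1466 with only the affected libraries, a fit of fewer samples; leaving out 1 library gave 2227 to 3902. The correlation within groups was 0.476, 0.922 in controls alone, 0.148 in affected dogs alone, and 0.364 to 0.630 with 1 library left out. The described differences kept their sign in every alternative. No paired analysis was possible because no label ties a dog to a littermate. Depth is high for both genes, so dogs per group limit the precision.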
